A study of Mus musculus with 2 samples.

Results

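The aldo-keto reductases described here are 10 mouse genes chosen by name: *Akr1c19*, *Akr1c6*, *Akr1c12*, *Akr1c13*, *Akr1c14*, *Akr1c20*, *Akr1d1*, *Akr1b3*, *Akr1b7* and *Akr7a5*. A deposited row carried the symbol of 8 of them, out of 15644 named genes in all. *Akr1b3* and *Akr1b7* had no row of that symbol, so no intensity is given for them. A row whose ID is the Entrez number of *Akr1b7* was present without a symbol. Members were taken by symbol, so that row was not used, and *Akr1b7* is left out of the comparisons below. The list was drawn up with the difference of *Akr1c19* between the arrays already known, so the differences below are descriptions of these arrays and carry no test. Expression was measured in primary hepatocytes, the parenchymal cells of the liver, taken from a male C57BL/6 mouse of 9 weeks and held in culture for 24 h. The cells then received either the vehicle dimethyl sulfoxide (DMSO) or pregnenolone 16α-carbonitrile (PCN) at 10 µmol/l, in both cases for 12 h. PCN, itself a steroid made by synthesis, is a ligand of the rodent pregnane X receptor (PXR), through which liver cells adjust their drug and steroid metabolism. Each group was 1 array, hybridised with RNA pooled from 3 samples, so there was no spread between cultures to set a difference against. The labels describe 1 mouse as the source of the cells, and the values therefore speak for the cultures of that preparation.

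Aldo-keto reductases are soluble enzymes that use NADPH or NADH to reduce aldehydes and ketones to alcohols, on sugars, steroids, bile acid precursors, prostaglandins and foreign compounds. In rodent liver the AKR1C group acts mainly as hydroxysteroid dehydrogenases, which switch steroids between ketone and hydroxyl forms. AKR1D1 reduces the double bond of the steroid A ring on the way to bile acids, the AKR1B group contains aldose reductase, which turns glucose into sorbitol, and AKR7A enzymes reduce dialdehydes such as those formed from aflatoxin.

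Most of the members lie next to each other in the genome. In the RefSeq annotation of GRCm38.p6, chromosome 13 carries a run of 9 protein-coding genes in the order *Akr1c14*, *Akr1c18*, *Akr1c13*, *Akr1c19*, *Akr1c12*, *Akr1c6*, *Akr1c20*, *Akr1c21* and *Akr1e1*, with no other protein-coding gene between them. *Akr1c19* thus stands between *Akr1c13* and *Akr1c12*. The DNA just before the start sites was compared for measured genes of this run, but not for *Akr1e1*. Likeness of that DNA does not measure how closely the genes themselves are related. The 250 bases upstream of the annotated start of 4 measured genes of the run are shown because these are the genes whose values are set against each other below. They are from RefSeq, GRCm38.p6, read 5′ to 3′ on the gene's strand, at chr13:4233490-4233739 (plus strand) for *Akr1c19*, chr13:4279400-4279649 (minus strand) for *Akr1c12*, chr13:4190937-4191186 (plus strand) for *Akr1c13* and chr13:4059341-4059590 (plus strand) for *Akr1c14*. Capitals mark each copy of CATTAG, a word that was picked after the sequences were seen.
Akr1c19: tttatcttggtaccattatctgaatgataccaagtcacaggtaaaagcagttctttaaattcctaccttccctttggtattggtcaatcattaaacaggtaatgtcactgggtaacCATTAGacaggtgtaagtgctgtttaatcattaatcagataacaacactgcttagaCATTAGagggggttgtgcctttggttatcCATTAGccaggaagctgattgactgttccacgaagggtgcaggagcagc
Akr1c12: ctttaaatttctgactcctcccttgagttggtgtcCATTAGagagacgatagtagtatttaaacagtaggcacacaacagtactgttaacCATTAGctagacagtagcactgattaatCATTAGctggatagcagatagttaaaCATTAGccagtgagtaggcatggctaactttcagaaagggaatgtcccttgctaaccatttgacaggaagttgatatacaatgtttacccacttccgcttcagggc
Akr1c13: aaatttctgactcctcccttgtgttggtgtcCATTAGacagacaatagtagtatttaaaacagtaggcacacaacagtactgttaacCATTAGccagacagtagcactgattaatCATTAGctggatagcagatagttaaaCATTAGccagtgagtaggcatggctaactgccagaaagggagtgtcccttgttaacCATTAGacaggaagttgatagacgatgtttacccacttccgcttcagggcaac
Akr1c14: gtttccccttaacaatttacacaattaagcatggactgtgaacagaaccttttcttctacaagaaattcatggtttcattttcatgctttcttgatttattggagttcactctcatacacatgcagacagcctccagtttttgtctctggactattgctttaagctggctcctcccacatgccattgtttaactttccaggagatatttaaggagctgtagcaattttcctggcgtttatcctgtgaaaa

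The *Akr1c12* and *Akr1c13* sequences were identical at 235 of 254 aligned columns, or 92.5%. *Akr1c19* matched *Akr1c13* at 60.3% and *Akr1c12* at 59.0% of columns. *Akr1c14* matched *Akr1c19* at 51.6%, close to the 47.6% of *Akr1cl* and *Akr1c12*, the least alike pair of the 8 AKR1C group sequences aligned. The word CATTAG, searched on both strands, occurred 3 times upstream of *Akr1c19*, 4 times upstream of *Akr1c12* and 5 times upstream of *Akr1c13*. It occurred once each upstream of *Akr1c6* and *Akr1c21* and was not found upstream of *Akr1c14* or *Akr1c18*. Of 32851 sequences of this length in the RefSeq table, 6.36% held the word at least once and 8 sequences (0.0244%) held it 3 times or more, these 3 genes among them. Words known from nuclear receptor binding were searched in the same way. The half-site AGGTCA, present in 14.0% of all sequences, was found upstream of the members *Akr1b7*, *Akr1d1* and *Akr7a5* and, in the rest of the family, of *Akr1b10*. A second half-site, AGTTCA, present in 11.8%, was found upstream of the members *Akr1c14* and *Akr7a5* and, in the rest of the family, of *Akr1b8*. Paired half-sites (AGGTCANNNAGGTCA, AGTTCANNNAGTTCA, AGTTCANNNNAGTTCA and TGAACTNNNNNNAGTTCA) were found, on either strand, upstream of no aldo-keto reductase in the table, where each occurred in at most 3 sequences. Every paired site contains one of the single half-sites, so these searches overlap. The letters AGGTCA and AGTTCA do not occur in the *Akr1c19*, *Akr1c12* or *Akr1c13* window, which covers 250 bases and no more distant DNA.

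The values are GCRMA intensities, background-corrected and normalized array signals on a linear scale in arbitrary units. An intensity of 32 (5 on the log2 scale) was taken as the floor under which a gene counts as not measured. Of the 8 members with a row of their symbol, 5 were measured, each with both of its values over the floor, and 3 had both values under it. Intensities of different probe sets depend on their probes, so the order of genes by intensity is not an order of transcript amounts, and each gene is compared between the arrays only. Over all 6449 measured genes, 3714 were higher with PCN and 2735 lower, around a median log2 difference of 0.03, with the middle 50% of genes between -0.09 and 0.14. The 40 bacterial and phage control probe sets above the floor, which are added from outside and carry no difference between cultures, had log2 differences from -0.33 to 0.16 with an SD of 0.10. Median intensity over all probe sets was 14.4 with DMSO and 14.1 with PCN.

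*Akr1c19* (Entrez gene 432720) stood apart from the other measured genes of the family. Its intensity was 312 with DMSO against 113 with PCN, which is 2.77-fold lower with PCN, or -1.47 on the log2 scale. The gene was well above the floor in both arrays, so this fold is not a bound set by the floor. In RNA from whole cultures, fewer cells that express the gene and less of its RNA per cell cannot be told apart. *Akr1c19* was the only measured member past 2-fold, 1 of 5. Of all measured genes, 0.326% differed by 2-fold or more, 0.233% being lower and 0.093% higher with PCN. The difference of *Akr1c19* was the third lowest of the 6449 genes. Because this value chose the list, its place in the order is a description.

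*Akr1c14*, which encodes the 3α-hydroxysteroid dehydrogenase of mouse liver that inactivates dihydrotestosterone, had intensities of 621 with DMSO and 496 with PCN. That is a 1.25-fold lower value with PCN, -0.32 on the log2 scale. It was the next lowest member, and 6.08% of measured genes had a lower difference. The lowest of the control probe sets was at -0.33, so a difference of this size occurred at the edge of the range of probe sets that carry no treatment.

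*Akr1c13* and *Akr1c12*, the genes on either side of *Akr1c19*, encode hydroxysteroid dehydrogenases that also oxidise alcohols of foreign compounds. *Akr1c13* went from 652 with DMSO to 599 with PCN, 1.09-fold lower. *Akr1c12* had 639.9 and 661, 1.03-fold higher, the only measured member with a higher value in the PCN array. On the log2 scale the differences were -0.12 and 0.05, both within the range of the control probe sets. How far the probe set of one of these genes also reads transcripts of the other, or of *Akr1c19*, cannot be seen from these intensities. The same holds for the probe set of *Akr1c19* and transcripts of its neighbours. The values of all of these genes, the fold of *Akr1c19* included, are uncertain to that extent.

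*Akr7a5*, the mouse aflatoxin aldehyde reductase, which also reduces succinic semialdehyde, had intensities of 789.98 with DMSO and 741 with PCN. It was 1.07-fold lower, -0.09 on the log2 scale, and lies outside the chromosome 13 run. Across the 5 measured members, 4 were lower with PCN and 1 higher, with a median of -0.12, beside 42.4% lower and a median of 0.03 over all measured genes. The median of the 4 members other than *Akr1c19* was -0.11. The difference of *Akr1c19* minus that median was -1.36 on the log2 scale. With 1 array per group, this gap could not be tested.

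The other 3 members with a row of their symbol were dim in both arrays. *Akr1c6*, the 17β-hydroxysteroid dehydrogenase of mouse liver, had intensities of 9.78 with DMSO and 8.88 with PCN. *Akr1c20*, another hydroxysteroid dehydrogenase of the run, had 3.47 and 2.80. *Akr1d1*, the steroid 5β-reductase of bile acid synthesis, had 7.57 and 12.3. All of these values lie under the floor of 32, and under an intensity of 16 as well, so no difference is given for them. Intensities this low do not show that a transcript is absent.

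**Figure D1:**
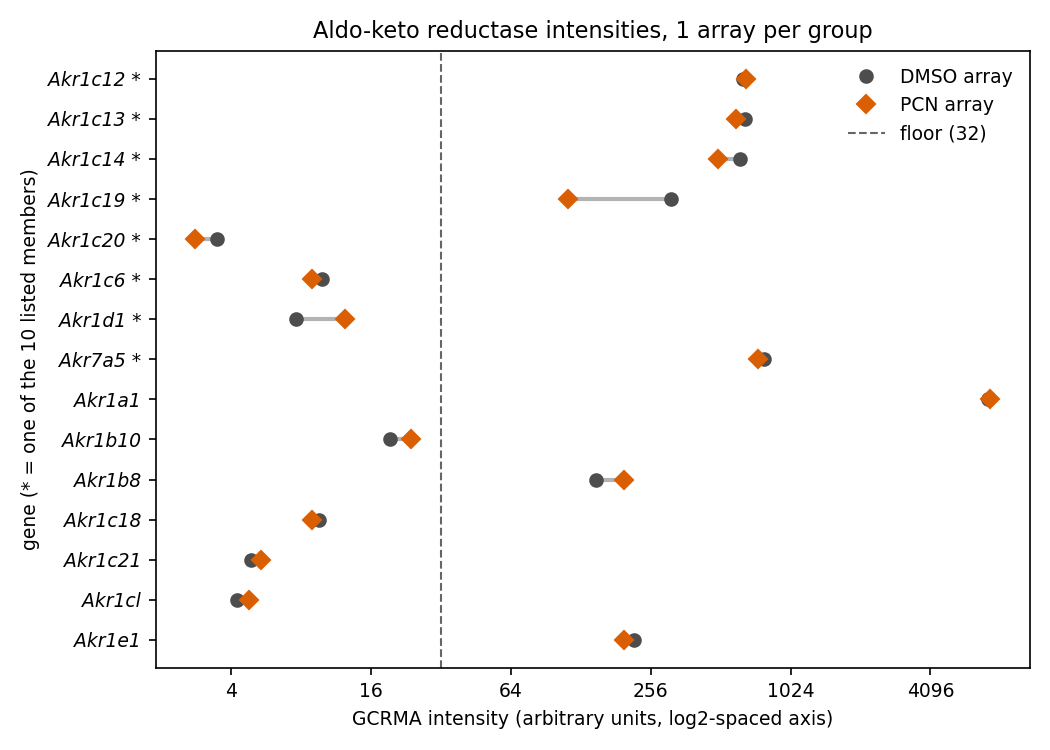
Intensity of each gene with an Akr symbol in the table, in the DMSO array (grey circles) and the PCN array (orange diamonds). The axis is log2-spaced, the floor of 32 is a dashed line and the listed members are marked by asterisks. *Akr1c19* moves from 312 to 113, while the other measured genes keep the 2 symbols close together and 7 genes lie under the floor.

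The rest of the superfamily was looked at through a list of 11 further symbols, 10 of which had a row and 3 of which were measured. *Akr1a1*, the aldehyde reductase that serves ascorbate synthesis in mice, had intensities of 7227 with DMSO and 7401 with PCN, a difference of 0.03 on the log2 scale that turned to -0.0086 with quantile normalization. *Akr1b8*, an aldose reductase-like gene first known as induced by fibroblast growth factor, had 149 and 197, 1.32-fold higher with PCN. *Akr1e1*, at the far end of the chromosome 13 run, had 217 and 197, 1.10-fold lower. Those under the floor in both arrays were *Akr1b10*, *Akr1c18*, *Akr1c21*, *Akr1cl*, *Kcnab1*, *Kcnab2* and *Kcnab3*; *Akr1c18* is the 20α-hydroxysteroid dehydrogenase that inactivates progesterone, and the last 3 are potassium channel subunits with an aldo-keto reductase fold. Of all 15 genes with an Akr symbol in the table, 8 were measured, 3 higher and 5 lower with PCN, with a median of -0.11. The 7 measured ones other than *Akr1c19* ran from -0.32 for *Akr1c14* to 0.40 for *Akr1b8*, and none of them reached 1.5-fold. Of all measured genes, 1.3% were lower and 0.636% higher by 1.5-fold or more.

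**Figure D2:**
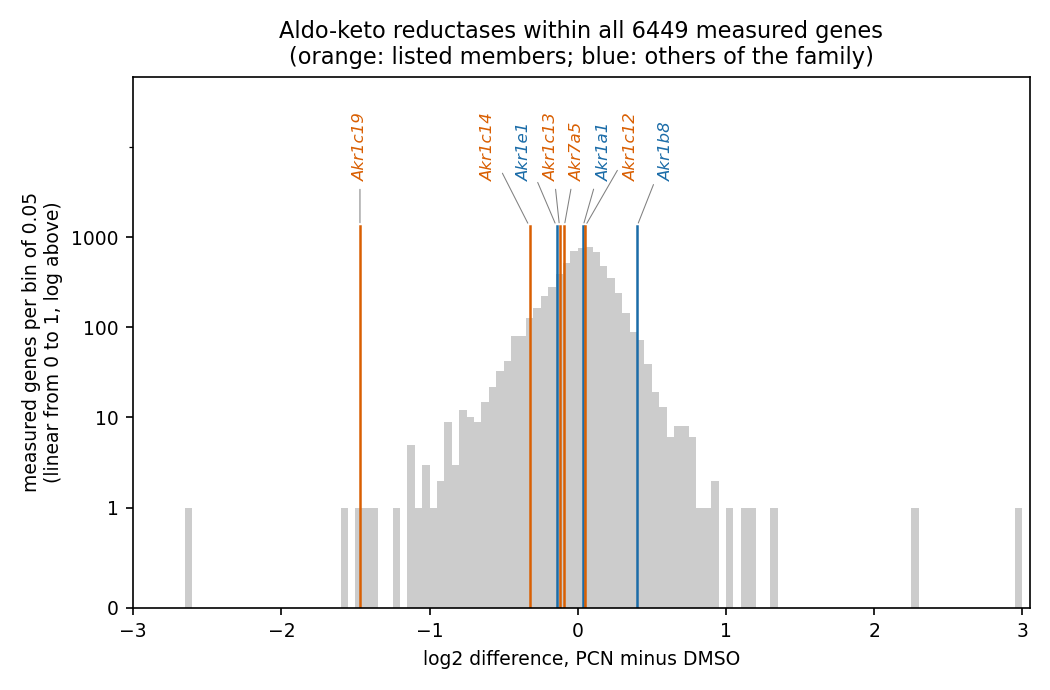
Number of measured genes in bins of 0.05 of the log2 difference, PCN minus DMSO (grey, axis linear from 0 to 1 and logarithmic above), with a line for each of the 8 measured aldo-keto reductases, orange for listed members and blue for the others. *Akr1c19* lies at -1.47 in the sparse lower tail, and the other 7 lie between -0.32 and 0.40 in the body of the distribution.

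Along chromosome 13 the values did not follow position. *Akr1c19*, at -1.47, sits between *Akr1c13* at -0.12 and *Akr1c12* at 0.05. The upstream sequences printed above are most alike for these last 2 genes, and *Akr1c19* is the next most alike to them. The 4 genes of the run under the floor, *Akr1c18*, *Akr1c6*, *Akr1c20* and *Akr1c21*, give no difference.

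**Figure D3:**
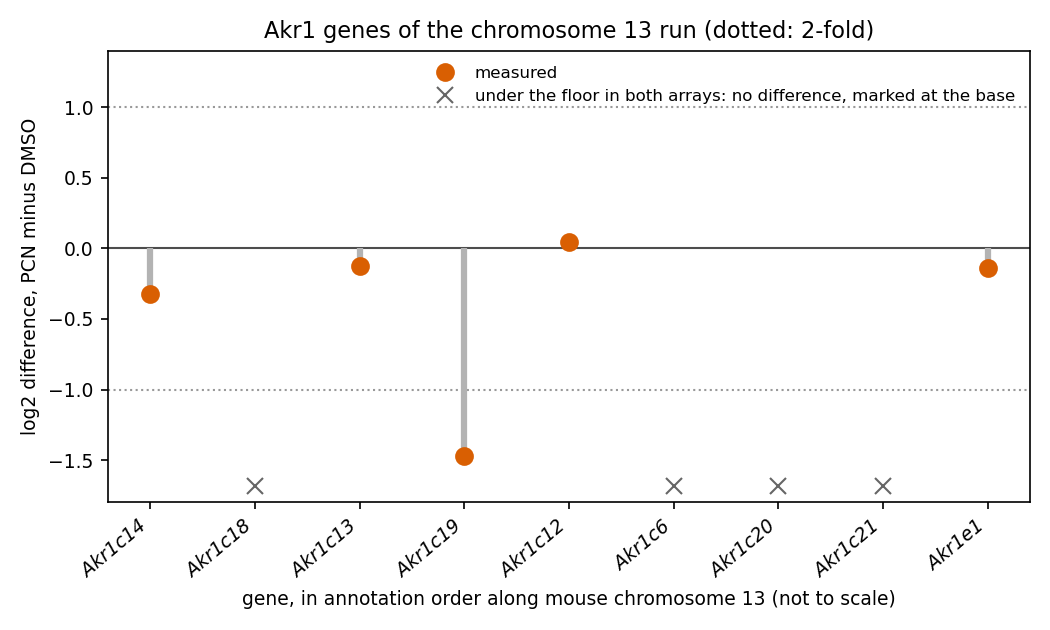
Log2 difference, PCN minus DMSO, of the 9 Akr1 genes in their annotated order along chromosome 13 (positions not to scale; dotted lines mark 2-fold), with orange points for measured genes and crosses at the base for the 4 genes under the floor in both arrays. *Akr1c19* passes the 2-fold line downwards at -1.47, while both of its direct neighbours lie near 0.

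The genes whose pair of intensities was most like that of *Akr1c19* were sought by the Euclidean distance between their log2 intensities. The search covered 6135 other named genes above the floor in both arrays. Uncharacterised gene models (symbols of the Gm, LOC, BC and Rik kinds) were left out of it, so one of them could lie nearer. With only 2 arrays this likeness means a similar level and a similar difference, and no more. *Slc25a47*, which encodes a liver-enriched carrier of the inner mitochondrial membrane, was nearest at a distance of 0.35, with intensities of 246 and 119. *Nrbp2* followed at 0.50 with 230 and 133, then *Csad*, the decarboxylase of taurine synthesis, at 0.57 with 251 and 157. *Scly*, the selenocysteine lyase gene, was at 0.60 with 207 and 104, and *Tfdp1*, a partner of E2F transcription factors, at 0.63 with 274 and 170.2. None of these 5 is an aldo-keto reductase.

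Enzymes that share substrates or cofactors with the members were taken from lists. Among 27 steroid reductases and hydroxysteroid dehydrogenases outside the family, 21 had a row and 10 were measured. Of these, 3 were higher and 7 lower with PCN, none by 1.5-fold, with a median of -0.05. *Hsd3b7*, a dehydrogenase of bile acid synthesis, was 1.25-fold lower, from 1274 to 1016. *Hsd17b12*, an enzyme of fatty acid elongation, was 1.18-fold higher, from 3323 to 3914. *Hsd17b7*, of cholesterol synthesis, was 1.17-fold lower and *Hsd17b11* 1.12-fold lower.

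Other carbonyl-reducing enzymes, mostly of the short-chain and alcohol dehydrogenase families, had 18 measured genes of 24 listed, 5 higher and 13 lower, with a median of -0.14, beside 42.4% of all measured genes lower. The 2-fold threshold was passed by 2 of the 18, both lower, beside 0.233% of all measured genes in that direction. *Dhrs3*, which reduces retinaldehyde to retinol, went from 83.1 to 28.6, at least 2.60-fold lower since the PCN value is under the floor. *Adh1*, the main liver alcohol dehydrogenase, went from 6383 to 3149.8, 2.03-fold lower. The carbonyl reductases *Cbr3* and *Cbr4* were 1.27-fold and 1.26-fold lower.

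Bile acid synthesis, in which *Akr1d1* acts after *Hsd3b7*, had 11 measured genes of 16 listed. All 11 were lower with PCN, beside 42.4% of all measured genes, with a median of -0.33 beside 0.03. Their folds ran from 1.01 to 2.32, so the smallest were close to no difference. The lowest of the control probe sets was also at -0.33. Some of these genes, such as *Hsd3b7*, are counted in the list of steroid reductases and hydroxysteroid dehydrogenases as well. *Baat*, which joins bile acids to taurine or glycine, was the only one of the 11 past 2-fold, beside 0.233% of all measured genes lower by as much. It went from 81.5 to 35.1, 2.32-fold lower. *Cyp39a1*, an oxysterol hydroxylase, was 1.42-fold lower, *Slc27a2*, an acyl-CoA synthetase, 1.34-fold lower and *Acot8*, a peroxisomal thioesterase, 1.31-fold lower. The hydroxylase genes *Cyp7a1* and *Cyp8b1*, which act near *Akr1d1* in this pathway, were under the floor in both arrays, as *Akr1d1* was.

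A list for the polyol pathway, opened by aldose reductase, and for fructose use held 9 genes, and 5 of these were measured. With PCN, 3 of the 5 were lower and 2 higher, and their median log2 difference was -0.32. None of the 5 encodes an enzyme that makes or uses sorbitol, so this median gives no value for the polyol pathway itself. *Tkfc*, a triose kinase, was 1.41-fold lower, *Khk*, ketohexokinase, 1.25-fold lower and *Glyctk*, glycerate kinase, 1.25-fold lower, while *Hk1*, a hexokinase, was 1.34-fold higher. Enzymes that supply NADPH, the usual cofactor of the family, formed a list in which *G6pdx* had no row of that symbol and is not covered. Of the 14 listed, 10 genes were measured, 6 higher and 4 lower, with a median of 0.02. The largest differences among them were those of *Idh2*, mitochondrial isocitrate dehydrogenase, 1.19-fold lower, *Aldh1l1*, a folate enzyme, 1.13-fold lower, *Nnt*, the mitochondrial transhydrogenase, 1.08-fold lower, and *H6pd*, of the endoplasmic reticulum, 1.07-fold higher.

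As a check of the treatment, 14 of 20 listed PXR target genes were measured, 11 higher and 3 lower with PCN. Most of all measured genes were higher too. The median of the 14 was 0.35, beside 0.03 over all measured genes, and their differences ran from -0.36 to 2.97. *Cyp3a25* was 7.82-fold higher, *Gstm3* 2.47-fold, *Cyp3a11* 1.87-fold and *Ces2a* 1.65-fold. No aldo-keto reductase was in that list. The highest measured value of the family, 0.40 for *Akr1b8*, was close to the median of these genes. Whether *Akr1b8* responds to PCN as they do was not tested.

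**Figure D4:**
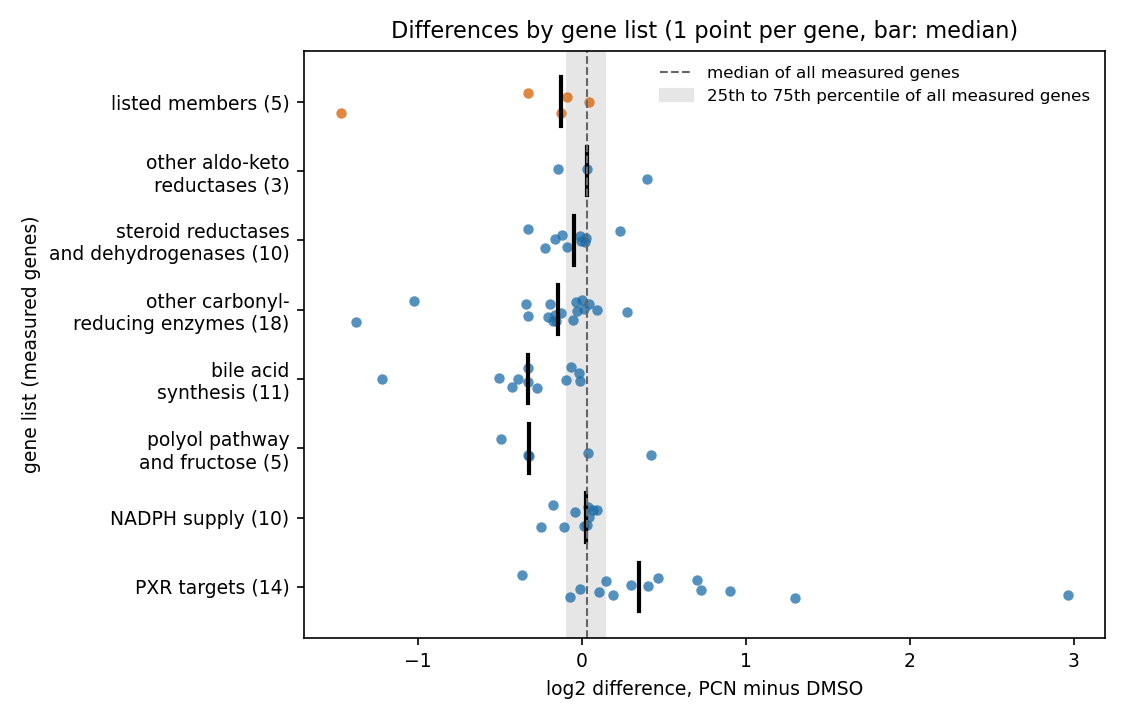
Log2 difference, PCN minus DMSO, of each measured gene in the listed members (orange) and in 7 further lists (blue), with a black bar at each list's median, a dashed line at the median of all measured genes (0.03) and a grey band over the middle 50% of them. The listed members have a median of -0.12 with *Akr1c19* far below it, bile acid synthesis genes a median of -0.33 and PXR targets a median of 0.35.

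The labelled cell type was checked with fixed markers. Of 12 hepatocyte markers, 9 had a row and 8 were measured, 3 higher and 5 lower with PCN, the remaining one being *Tat*, a tyrosine aminotransferase gene with intensities of 23.9 and 14.9. Their summed intensity, all 9 included, was 98640.1 with DMSO and 98390.7 with PCN, and *Alb*, the albumin gene, had 21685 and 21383. *Hnf4a* had the largest difference of the measured hepatocyte markers, from 529 with DMSO to 457 with PCN, or -0.21 on the log2 scale. Of the markers of other liver cells, 2 of 10 for stellate cells and fibroblasts, 3 of 10 for Kupffer cells and leukocytes, 3 of 10 for endothelial cells and 3 of 8 with a row for bile duct cells were measured. The summed intensities of these lists were 449 and 404, 1815 and 1763, 185 and 197, and 2171 and 2308, DMSO first. The measured markers were *Acta2* and *Dcn*, then *Cd68*, *C1qa* and *C1qb*, then *Stab2*, *Lyve1* and *Fcgr2b*, and then *Krt19*, *Sox9* and *Cldn4*, and the others with a row were under the floor in both arrays. *Cldn4* had intensities of 1842 and 1956, *Cd68* had 1690.2 and 1626, and *Dcn* had 351 and 313. The bile duct markers *Krt19* and *Sox9* moved in opposite directions, from 169 to 223 and from 127 to 95.2, or 0.40 and -0.42 on the log2 scale. Among probe sets for RNA quality, those for 18S ribosomal RNA (3′, 5′ and middle) were lower with PCN by -0.42, -0.67 and -0.34, at intensities of at most 69.6. The floor was not applied to these differences. Under it lie both 3′ values, 27.6 with DMSO and 20.7 with PCN, and the 5′ value with PCN, 31.1. The 3′, middle and 5′ probe sets of *Actb* and *Gapdh* differed by -0.03 to 0.05. The part of these in the value of *Akr1c19* was not tested.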

How the data were processed

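Per the labels' protocols, each of the 2 one-colour Affymetrix arrays, 1 per group, received biotin-labelled cRNA from 5 µg of RNA, a pool of 3 samples. The deposited values are intensities made by the authors with GCRMA 2.2.0, per the submitters' processing notes, which models background from probe sequence, brings both arrays to a shared distribution and gives 1 value per probe set. They were read as linear because they run far above any log2 range. The probe set definition is not given in the sources used here. GCRMA hides any change in total RNA per cell.

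The table held 16395 probe sets: 64 controls, 15644 with 1 gene symbol in the platform annotation, 687 unnamed, and none with several. No symbol had more than 1 probe set. Differences are log2 intensities, PCN minus DMSO (Python 3.11.15, numpy 2.4.6, pandas 2.3.3, statsmodels 0.14.6). Genes under a log2 floor of 5 in both arrays were not measured. A value under it in 1 array was raised to it, which makes the fold a lower bound ("at least"). The floor is a choice, since the table has no detection calls. With 1 array per group no test, error or p-value was computed. The number of arrays limits the precision, and a batch cannot be told apart from the treatment.

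The members, the 7 gene lists, the 5 marker lists and the thresholds were chosen with earlier results of these data known. Named were all members, all measured genes of the list of other aldo-keto reductases and the 4 largest differences of each further list. The 5 genes nearest to Akr1c19 and the measured markers of other liver cells were named too. Alb, Hnf4a, Glo1 and the genes under the floor that are named were picked after their values were seen. Some listed genes without a row are also named. On simulated arrays with 200 of 15644 genes changed 2.83-fold, 100.0% were recovered with 0 false calls, near certain given the small simulated noise. Upstream sequences are the first 250 bases of the RefSeq promoter table (GRCm38.p6), which held 8 of the 10 members, aligned globally in pairs. Alternatives were other floors, thresholds and scalings.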

Additional observations from a re-analysis of the deposited data

How the results depend on the processing

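Akr1c19 stayed past 2-fold and lower with quantile normalization, median centring and a loess trend removed (fraction 0.3), from -1.52 to -1.50 on the log2 scale. A floor of 4 or 6 and low values as deposited left it at -1.47. That outcome was fixed in advance, because both of its intensities lie above these floors. Its gap to the median of the other measured members ran from -1.37 to -1.36. The floors, low values as deposited and median centring could not change this gap. At a 3-fold threshold 0 members and 3 genes in all passed, and at 1.5-fold 1 member and 125 genes. With a floor of 4 the median of the other aldo-keto reductases was 0.17 in place of 0.03, since a dimmer gene enters. That median turned to -0.0086 with quantile normalization, and the NADPH list turned to -0.0080 after centring on the median and -0.0078 after the loess correction, all near 0. Genes lower by 2-fold numbered 8 with a floor of 6, against 15. Counting unnamed probe sets as genes gave 22 past 2-fold, against 21. Of 113 recomputed values, 108 stayed within the control SD of 0.10 or, for counts, within 1.5 times, and 5 moved by more. The 108 include values that could not change, such as those of genes well above every floor when only the floor was altered. All of these alternatives were planned. Averaging probe sets was not run, since no member had several. Leaving out a replicate would leave a group empty. No paired analysis was possible because there was a single array for PCN and a single array for DMSO. Signal close to background limits Akr1c6, Akr1c20 and Akr1d1.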
